A study of Caenorhabditis elegans with 12 samples.

Results

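The nssp genes are a class of protein-coding genes of the nematode Caenorhabditis elegans that share a name and a running number. They were found by gene symbol alone: 55 of the 8187 genes with a named probe on the array carry a symbol starting with nssp-, and each of the 55 has 1 probe. The WBcel235 annotation lists 86 such genes, and the other 31 were not analysed here. Whole hermaphrodites of the wild-type strain N2 were raised at 20 °C and then held at 25 °C for 48 h, either untreated (6 control samples) or on medium with 10 mM lithium chloride (LiCl, 6 samples). All animals were of that single strain, with no transgene or mutation named, and their age at the shift is not given in the labels. A sample was 50 picked adults, grown and harvested apart from the others. Its amplified RNA was hybridised beside a common reference, RNA pooled from N2 of mixed stages.

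As background, a C. elegans gene name holds a class, here nssp, and a number, and a class can gather genes by sequence features without a known role. The tables used here give these genes sequence names and no product or function, so none is stated for any member below. Lithium salts are known to inhibit glycogen synthase kinase-3 and inositol monophosphatase. Levels in pooled whole animals add up all tissues and the embryos inside the parent, and in such samples fewer cells of a type and less RNA per cell cannot be told apart.

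The values are deposited log ratios of a sample to the reference, read as log2. Their base and scale are not stated, so sizes are given in log ratio units and never as folds. No source states their direction. Sample over reference is likely, because the labels give Cy5 to the sample and Cy3 to the reference. Of the marker genes, 3 of 3 oocyte and maternal genes and 8 of 10 sperm genes lay above 0, and 22 of 24 neuropeptide and 3 of 3 pharynx and gland genes lay below, and this alone does not settle the direction. Were the ratio the other way round, higher and lower would change places throughout. The yolk, intestine, cuticle and body muscle markers chosen for this check carry no named probe, so those tissues were not checked. Of the 22370 probes, between 16 and 150 lacked a value on an array, array medians lay between 0.018 and 0.044, and pairs of arrays correlated across probes at 0.523 to 0.779. Of the 55 nssp probes, 53 had a value on every array, while nssp-1 lacked LiCl replicate 4 and nssp-54 lacked control replicate 3, and both were fitted on their 11 values.

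Most nssp genes were lower in these animals than in the mixed-stage reference. The mean over the 12 arrays was below 0 for 49 of 55 genes (89.1%), against 47.0% of all probes, and below -1 for 24 of 55 (43.6%), against 14.1% of all probes. The median of these means was -0.94 over the nssp genes and 0.05 over all probes. These are levels relative to the reference pool, described without a test, because the reference is no sample of either group. A total of 33 genes lay below 0 on every array that measured them, and nssp-7 was the only member above 0 on all of its arrays.

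The members ranged widely around that median. The highest was nssp-7 (sequence name C04F12.5), with a mean of 1.26 ± 0.48 in control and 1.88 ± 0.27 in LiCl (SD, n = 6 each). Its control values ran from 0.40 to 1.80, with a median of 1.38, and its LiCl values from 1.43 to 2.16. The difference, 0.62 ± 0.23 (SE), did not pass the test (limma adjusted p = 0.119), and the groups overlapped. Next in order of the mean over 12 arrays came nssp-91 (F38E9.6) at 0.59, nssp-35 (Y45F3A.4) at 0.49, nssp-53 (F27B10.1) at 0.30 and nssp-1 (Y23H5B.1) at 0.30. Neighbours in this order from nssp-91 to nssp-1 differed by less than the SD between arrays. nssp-34 (T26G10.5), at 0.10, was the sixth and last gene above 0.

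At the other end, nssp-25 (D2089.3) had the lowest level of all members, -2.67 ± 1.07 in control and -2.76 ± 0.77 in LiCl (SD, n = 6 each). Its control arrays ran from -4.21 to -1.24 and its LiCl arrays from -3.33 to -1.29, so single arrays of both groups covered most of its range. nssp-63 (F58B4.3) followed with a mean over 12 arrays of -2.31, nssp-60 (F07C3.2) with -1.98, nssp-82 (C18A11.2) with -1.93 and nssp-11 (Y39F10A.1) with -1.84. Of these, nssp-82 was tight, with -2.05 ± 0.26 in control and -1.81 ± 0.19 in LiCl (SD, n = 6 each), and nssp-60 was loose, with SDs of 0.94 and 0.72. Between the extremes, 8 genes had means between -2 and -1.5, 14 between -1.5 and -1, 15 between -1 and -0.5 and 10 between -0.5 and 0.

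**Figure D1:**
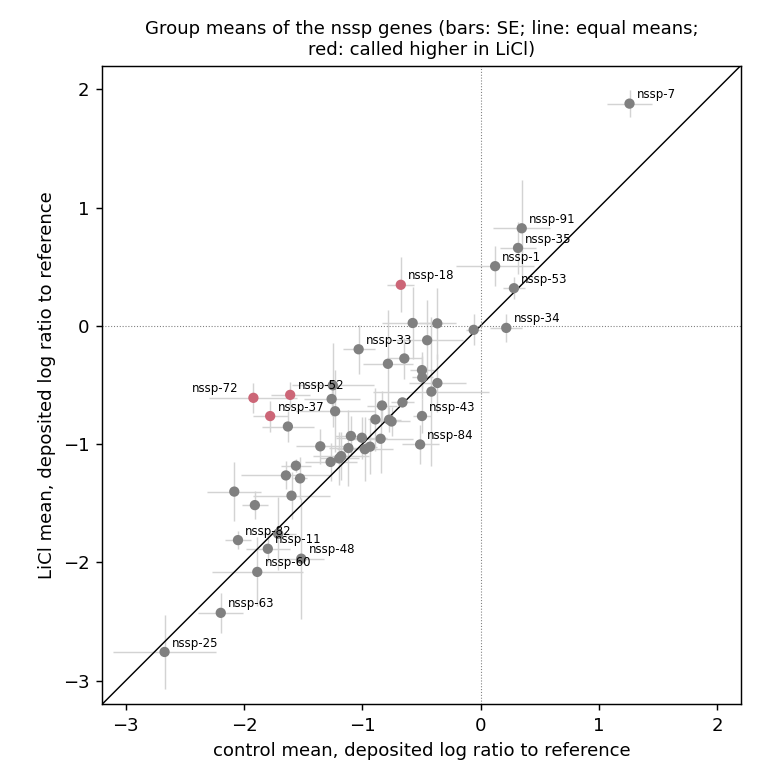
Mean deposited log ratio to the reference in control (horizontal axis) against LiCl (vertical axis) for the 55 nssp genes, with bars of 1 SE and a line of equal means. Most genes lie in the lower left, below 0 in both groups, and the 4 genes called higher in LiCl, drawn in red, lie above the line, as do 35 others.

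The comparison of LiCl with control asks which transcripts differ in level after 48 h on lithium. Of the 55 nssp genes, nssp-52, nssp-37, nssp-18 and nssp-72 rose in LiCl and none fell (limma, Benjamini-Hochberg adjusted p under 0.05 over all probes). These 4 genes are 7.27% of the members, against 8.0% of all probes called in either direction, so the share of nssp genes that changed was near the background of the whole table. By direction, 4.50% of all probes were called higher and 3.50% lower, and whether the split of the 4 members differs from that was not tested. At an unadjusted p under 0.05, 10 members were higher (18.2%, against 12.1% of all probes) and 0 were lower (against 10.7%). The calls were sensitive to the arrays and to the probes used. On the 8 arrays of highest weight none of the 4 passed (limma gives lower weights to arrays that stray from the fit). Their differences there were 0.91 to 1.48, and 3.8% of all probes were called, against 8.0% on all arrays. Among the more variable probes only, again none passed, although all 12 arrays were used and the differences were unchanged. Leaving out 1 array at a time left between 2 and 5 genes called, always including nssp-52 and nssp-37.

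nssp-52 (C04E6.13, on chromosome V) had control values of -1.22, -1.35, -1.96, -2.16, -1.21 and -1.77 in replicates 1 to 6. Its LiCl values were -0.31, -0.55, -0.61, -1.03, -0.32 and -0.69. The groups did not overlap: the lowest LiCl array, replicate 4, lay above the highest control arrays, replicates 1 and 5. The mean rose by 1.03 ± 0.21 (SE, limma adjusted p = 0.0097), from -1.61 ± 0.41 to -0.58 ± 0.27 (SD, n = 6 each). On every array it stayed below the reference.

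nssp-37 (Y76B12C.8, on chromosome IV) had a difference of similar size. Its control values were -1.32, -1.65, -1.70, -2.39, -1.66 and -1.96. In LiCl they were -0.58, -0.30, -0.60, -1.13, -0.94 and -1.04. Again no LiCl array reached down to a control array, replicate 4 was the lowest in both groups, and all 12 values lay below 0. The difference was 1.02 ± 0.21 (SE, limma adjusted p = 0.00998), from -1.78 ± 0.36 to -0.76 ± 0.32 (SD, n = 6 each).

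nssp-18 (F09E5.16, on chromosome II) differed from the other 3 called genes in that its LiCl mean crossed the reference level. Control values were -0.70, -0.14, -0.92, -0.67, -0.86 and -0.75, and LiCl values were 0.88, -0.21, -0.18, 0.12, 1.17 and 0.31. Replicates 1 and 5 of LiCl were high, and replicates 2 and 3 lay just below the highest control array, replicate 2, so the groups overlapped. The mean rose by 1.02 ± 0.25 (SE, limma adjusted p = 0.0276), from -0.67 ± 0.28 to 0.35 ± 0.57 (SD, n = 6 each). With the replicate number as a block the adjusted p was 0.0706. The call was also lost without control replicate 1, 3, 4, 5 or 6 or without LiCl replicate 1, where the adjusted p lay between 0.0518 and 0.0619.

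nssp-72 (Y43F8A.1, on chromosome V) had the largest difference among the members, 1.31 ± 0.36 (SE), and the weakest call (limma adjusted p = 0.045). Its control values were -1.81, -1.17, -1.53, -3.72, -1.56 and -1.74, and its LiCl values -0.73, -0.93, -0.21, -0.96, -0.38 and -0.45. The groups did not overlap, and control replicate 4 lay far below the other 5 controls. Without that array the difference was 0.95 and the adjusted p was 0.0146. The adjusted p was above the threshold on leaving out any of the other arrays except control replicate 2, and was then between 0.0577 and 0.0882.

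**Figure D2:**
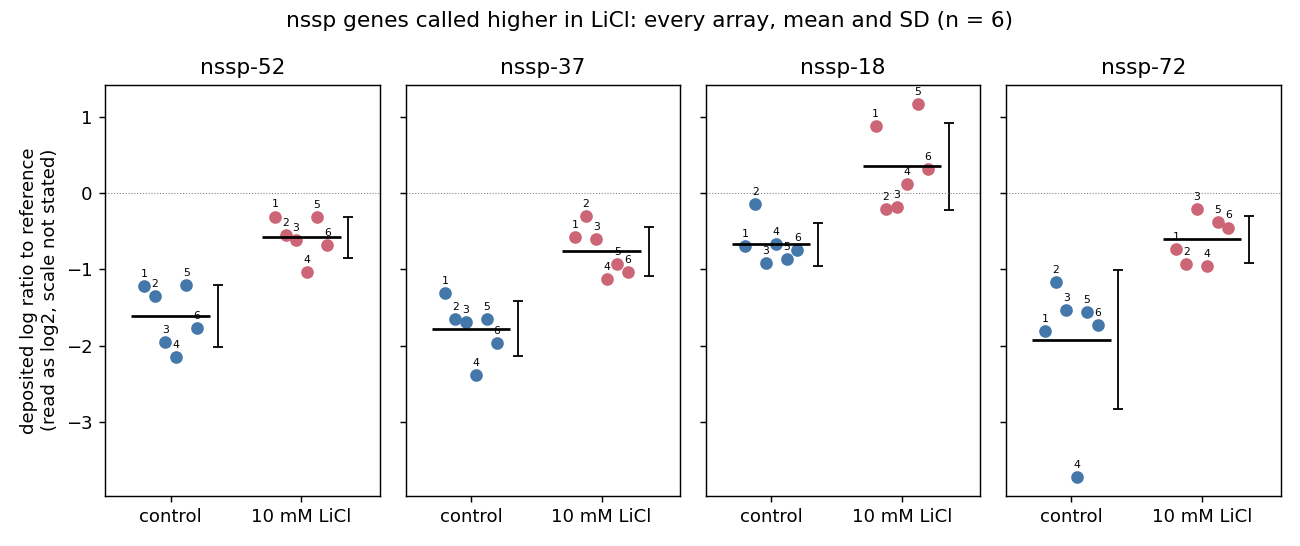
Deposited log ratio on every array (numbered by replicate) for the 4 nssp genes called higher in LiCl, with group means as lines and SD as bars, n = 6 per group. The LiCl points lie above all control points in nssp-52, nssp-37 and nssp-72 and overlap them in nssp-18, and control replicate 4 of nssp-72, at -3.72, lies far below the rest.

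Groups without overlap were found for 3 of the 55 members (5.45%), nssp-37, nssp-52 and nssp-72, in each with LiCl higher. Over all probes, 3.60% had all LiCl values above all control values and 3.00% had all below, and no nssp gene was of the second kind.

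Of the 51 genes that did not pass, 2 had an adjusted p under 0.10. nssp-33 (ZK370.6) had control values between -1.52 and -0.59 and LiCl values between -0.98 and 0.39, with a LiCl median of -0.18. The difference was 0.83 ± 0.25 (SE, limma adjusted p = 0.0572). Its LiCl replicate 2, at -0.98, lay among the controls while the other 5 LiCl arrays lay above all of them, and without it the difference was 0.99 and the adjusted p 0.0194. Leaving out any other single array kept nssp-33 uncalled, with a limma adjusted p between 0.0584 and 0.118. With the replicate block it was 0.108. For nssp-79 (F41B4.2), named after its values were seen, the control median was -1.66 and the LiCl median -0.78, with a difference of 0.78 ± 0.25 (SE, limma adjusted p = 0.0778) and overlapping groups.

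The most negative differences among the members were small beside these. nssp-84 (R09F10.5) had a mean of -0.51 ± 0.38 in control and -1.003 ± 0.40 in LiCl (SD, n = 6 each), and its difference was -0.49 ± 0.23 (SE, limma adjusted p = 0.22). nssp-48 (F13E9.12) followed with -0.45 ± 0.50 (SE). This value rested on LiCl replicate 2, at -4.32 against -2.37 to -1.02 on the other LiCl arrays, and without that array the difference was 0.02. Then came nssp-43 (F35H10.2) with -0.27, nssp-34 with -0.24 and nssp-63 with -0.23, none past the test. Their size moved with single arrays: leaving out 1 array gave -0.36 to -0.17 in nssp-43 (nearest 0 without LiCl replicate 5), -0.34 to -0.15 in nssp-34 (nearest 0 without control replicate 2) and -0.41 to -0.13 in nssp-63 (farthest from 0 without control replicate 3 and nearest without LiCl replicate 2).

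The remaining differences filled the space between. In all, 39 of 55 differences were above 0 (70.9%), against 51.7% over all probes, and 16 were below. The median difference was 0.16 over the nssp genes, with quartiles of -0.05 and 0.43, and 0.02 over all probes, with quartiles of -0.30 and 0.34. Over the 10521 probes whose mean over 12 arrays lay below 0, as it did for most nssp genes, the median difference was 0.04 and 3.93% were called higher. A total of 8 members had differences between 0.5 and 1, namely nssp-2, nssp-7, nssp-33, nssp-42, nssp-50, nssp-74, nssp-77 and nssp-79. Another 11 lay between 0.25 and 0.5, 16 between 0 and 0.25, 13 between -0.25 and 0, and 3 below -0.25.

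For many genes that did not pass, the data bound the difference. The 95% interval lay within 1 log ratio unit either way for 33 of the 51, and within 0.5 for 4. Those 4, nssp-15, nssp-44, nssp-53 and nssp-83, were named for this after their values were seen. nssp-15 (K07D4.9) was the steadiest member: all control arrays lay between -1.07 and -0.30, all LiCl arrays between -0.74 and -0.46, and the difference was 0.01 with an interval of -0.30 to 0.33. The intervals of the other 18 reached 1 or beyond in at least 1 direction. In nssp-25, nssp-48 and nssp-60 they did so only on the negative side, with upper ends of 0.97, 0.62 and 0.76. For the rest of the 18, with 6 arrays per group, these data do not bound a rise below the size seen in the called genes.

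**Figure D3:**
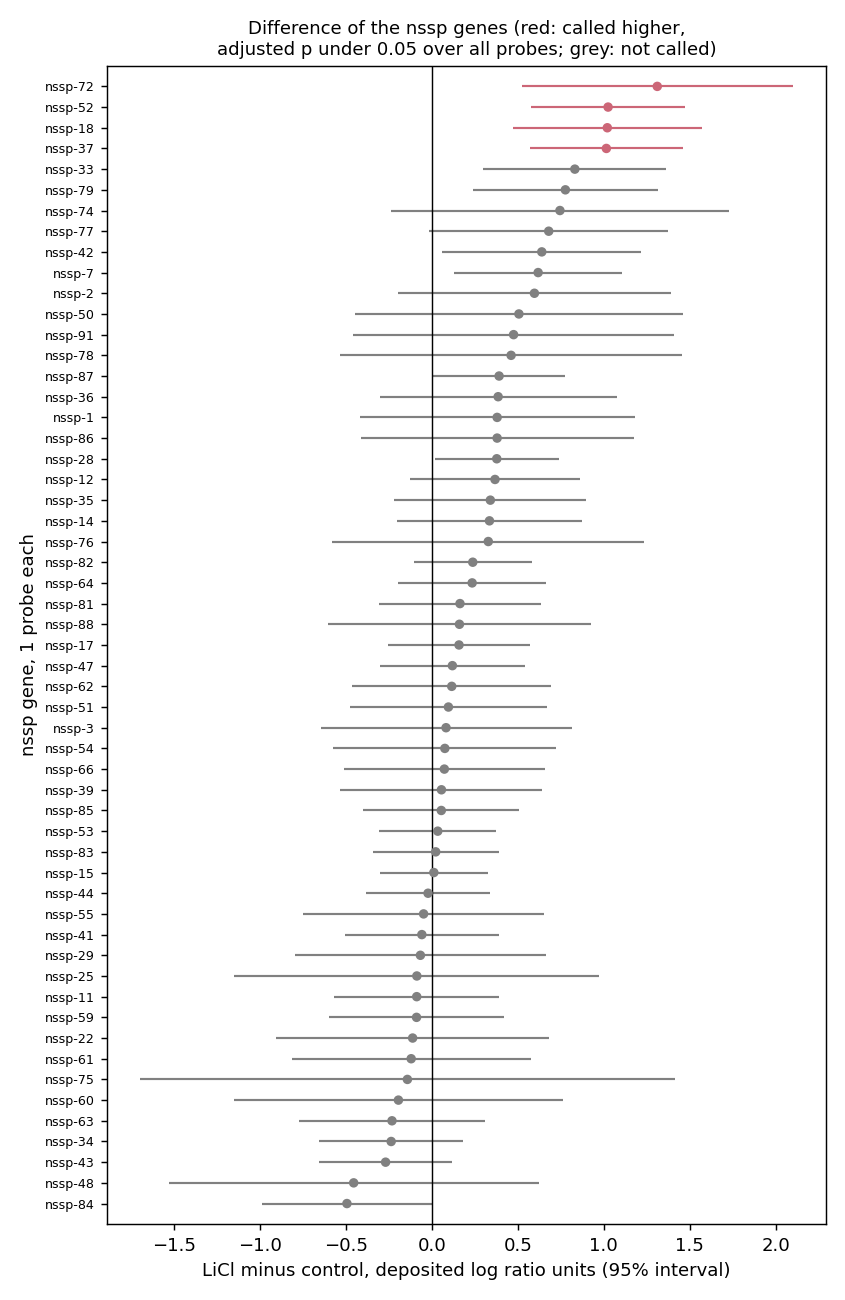
Difference of LiCl minus control in deposited log ratio units, with 95% intervals from the limma fit, for all 55 nssp genes in order of size. The 4 called genes, in red, have differences from 1.02 to 1.31, and the other intervals, in grey, range from narrow, as in nssp-15, to wide, as in nssp-75.

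The members also differed in how much single arrays scattered. The SD within groups, pooled over both, ran from 0.19 in nssp-15 to 1.39 in nssp-75, with a median of 0.46 against 0.48 over all probes. In nssp-75 (C25G6.1), singled out after its values were seen, replicate 6 was the lowest array of both groups, at -2.38 in control and -3.55 in LiCl, while the others lay between -0.72 and 1.35. In nssp-76 (T07D1.3), also singled out afterwards, replicate 6 was the highest array of both groups, at 0.93 and 1.31, against -1.21 to 0.25 on the others.

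Across arrays, the median over the nssp genes lay between -1.09 and -0.86 in control and between -1.03 and -0.58 in LiCl. Of the LiCl arrays, 5 lay above every control array, and LiCl replicate 4, at -1.03, lay among the controls. That array held the lowest LiCl value of 18 of the 55 genes (32.7%, against 13.4% of all probes) and the highest of 0 (against 14.1%). It was the lowest LiCl array in nssp-52, nssp-37 and nssp-72, and the same 3 genes had their lowest control value on control replicate 4. LiCl replicate 1 held the highest LiCl value of 19 of the 55 genes. It was also the highest LiCl array in 22.4% of all probes, the largest such share among the LiCl arrays. Without LiCl replicate 4 the median difference over the members was 0.23, and without control replicate 4 it was 0.10, against 0.16 on all arrays.

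**Figure D4:**
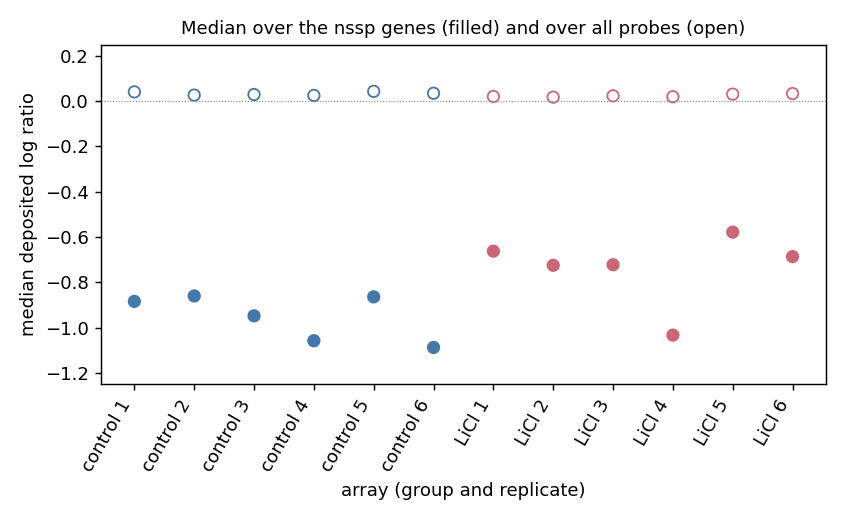
Median deposited log ratio over the nssp genes (filled) and over all probes (open) on each of the 12 arrays, control in blue and LiCl in red. The medians over all probes lie just above 0 on every array, and those of the nssp genes lie between -1.09 and -0.58, with LiCl replicate 4 at -1.03.

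The numbers of the nssp genes follow their order along the genome. In the WBcel235 annotation all 86 numbers rise with position along each chromosome, from 1 to 8 on chromosome I up to 74 to 91 on chromosome X, an order that says nothing of distance: nssp-87 and nssp-88, for example, had 439 protein-coding genes between them. The measured genes numbered 4 on I, 8 on II, 6 on III, 8 on IV, 14 on V and 15 on X, and the called ones were on II, IV and V. Against 8.0% called over all probes of the array, whatever their chromosome, none of the 4 on I, the 6 on III or the 15 on X was called. The median differences on these chromosomes were 0.49, 0.36 and 0.33. Whether chromosomes differ was not tested. No measured members were immediate neighbours, and the closest, nssp-54 with nssp-55 and nssp-74 with nssp-75, had 1 protein-coding gene between them. Their differences were 0.08 and -0.05 in the first pair and 0.75 and -0.14 in the second. nssp-17 and nssp-18 had 6 genes between them, and only nssp-18 was called, with 0.16 ± 0.19 (SE) for nssp-17. Whether the members of such a pair differ from each other was not tested.

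Genes next to the nssp genes were read from the same fit, and those named here beside uncalled members were chosen after their values were seen. Of 47 immediate protein-coding neighbours with a named probe, 6 rose and 2 fell (17.0%), against 8.0% of all probes, and their median difference was 0.21. The neighbour after nssp-72, Y43F8A.2, rose by 1.75 ± 0.41 (SE, limma adjusted p = 0.0204), from a level far above the reference (mean over 12 arrays 3.26). The neighbour after nssp-52, lrpr-1, fell by 1.21 on the same scale (SE 0.20, limma adjusted p = 0.00304), opposite in sign to nssp-52. The measured neighbours of nssp-37, Y76B12C.3 (0.61) and Y76B12C.6 (-0.65), and that of nssp-18, F09E5.12 (0.51), did not pass the test. Among uncalled members, the neighbour after nssp-15, K07D4.4, rose by 2.28 ± 0.23 (SE, limma adjusted p = 0.000146), while nssp-15 itself stayed within the interval given above.

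Other name classes were counted by the same rule, beside the 4.50% of all probes called higher and 3.50% called lower. Of 54 gtnt genes, 1 rose and 2 fell, with a median difference of 0.01, and 27 of the 54 lay below the reference. Of 16 idpp genes, 2 rose and none fell, with a median difference of 0.30, and 14 lay below the reference, with a median level of -0.92 close to that of the nssp genes. Of 31 cest genes, the carboxylesterases, 4 rose and none fell, with a median difference of 0.23. Of 15 txt genes 2 rose (median difference 0.39), of 17 clc genes 3 rose (0.11) and of 24 pals genes 1 rose (0.24), and none of these fell. Of 17 lido genes 2 rose and 1 fell (0.13), and of 4 ule genes, named for the uterine lumen, 2 fell (-0.92). The spp, phat and pqn classes had 2, 2 and 1 measured genes, of which 1 phat gene rose and the pqn gene fell. Whether these classes differ from the nssp genes was not tested.

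Of the 40 marker genes of parts of the body or cell types with a named probe, 5 were called (12.5%), against 8.0% of all probes. Of the 24 neuropeptide genes, which like most nssp genes lay below the reference, 1 rose and none fell, and their mean per array was -1.30 to -1.07 in control and -1.27 to -0.92 in LiCl. Of 10 sperm genes 1 rose and 1 fell, with a median difference of 0.01, and of 3 pharynx and gland genes 1 rose and 1 fell, with a median difference of 0.38. The pharynx and gland list takes in every phat gene, so the phat genes counted above as a name class are counted here again. None of the 3 oocyte and maternal genes was called, and their median difference was -0.39. Their mean per array was 1.23 to 1.93 in control and 0.81 to 1.47 in LiCl. The part of such shifts in the rises of the nssp genes was not tested.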

How the data were processed

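Each of 12 samples, 6 control and 6 LiCl, was hybridised to 1 array with Cy5, beside a Cy3-labelled reference, per the labels, which name no dye swap. The deposited values are processed log ratios, read here as log2. Their direction, and how the authors normalized, filtered or scaled them, is not given in the sources used here. All value columns were mapped to samples by accession. The platform annotation named 8757 of 22370 probes, and symbols were updated through gene identifiers to WBcel235 (8724 matched, including all 55 nssp genes).

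A linear model with 1 term, LiCl against control, was fitted to the deposited log ratio of every probe using lmFit and eBayes of limma 3.58.1 (R 4.3.3). All 22370 probes had values on at least 4 arrays of both groups and entered 1 Benjamini-Hochberg correction, and a two-sided adjusted p under 0.05 counts as called. The fit was tested on simulated data. Means carry SD or SE, and the number of arrays limits precision. Named genes are the called members, those with the 5 largest differences each way, the 5 highest and 5 lowest levels, and those without overlap. Members and lists were chosen with earlier results of these data known. Same-numbered replicates were not treated as pairs in the main fit: their deviations correlated at -0.0339 to 0.15, above 0.1 in 1 of 6 pairs. The choice affects the calls, since with the replicate number as a block 1393 probes were called, against 1789 without it. Alternatives covered normalization, variance models, weights, filters, thresholds, a replicate block and leaving out arrays. No sequences are shown, and protein features were not analysed here. Plots were made in Python 3.11.15 (matplotlib 3.10.9).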

Additional observations from a re-analysis of the deposited data

Results flagged for a closer look

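For 19 named nssp genes, 38 groups of control or LiCl arrays were searched for a single array far from the others of its group. A total of 4 were found. In groups not picked by their values, about 1 in 20, or 1.9, would be found. The 19 genes were named from these same values, so the 4 cannot be read as an excess. In nssp-72 control replicate 4, at -3.722, lay far below the other 5 controls. In nssp-18 control replicate 2, at -0.1396, lay above the other controls. In nssp-60 control replicate 5, at -0.03211, lay above the rest, which ran from -2.56 to -1.97. In nssp-63 control replicate 3, at -3.099, lay below the others. Without the array in question the difference was 0.95 in nssp-72 (limma adjusted p = 0.0146), 1.13 in nssp-18 (0.0257), 0.18 in nssp-60 (0.803) and -0.41 in nssp-63 (0.30).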

How the results depend on the processing

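nssp-52 and nssp-37 passed under 21 of 23 alternatives, with differences of 0.92 to 1.12 and 0.89 to 1.11, nssp-18 under 14 (0.86 to 1.13) and nssp-72 under 10 (0.95 to 1.48). These tallies include the looser threshold of 0.10, which a called gene cannot fail. They also include the averaging of probes, which left the values of these single-probe genes unchanged. On leaving out 1 array, nssp-52 and nssp-37 passed in 12 of 12 fits, nssp-18 in 6 and nssp-72 in 2. Under 2 settings 0 nssp genes were called. On the 8 arrays of highest weight (5 control and 3 LiCl, at least 3 values per group), the adjusted p of the 4 genes lay between 0.0813 and 0.179, and 847 probes were called (528 higher, 319 lower), with a median nssp difference of 0.11. Among the probes of higher spread, which kept 27 nssp genes, 622 probes were called (432 higher, 190 lower) and the median nssp difference was 0.39. Spread was taken over all 12 arrays and so includes the difference between groups. That filter favours genes with large differences, so the 0.39 is in part set by it. An adjusted p under 0.10 gave 2836 probes (1554 higher, 1282 lower) and 6 nssp genes. With the replicate block, 3 nssp genes were called, all but nssp-18. Without moderation of variances 3 were called, all but nssp-72.

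Leaving out 1 array gave 2 to 5 called nssp genes, all higher. It gave 1181 to 1600 called probes, 697 to 976 higher and 479 to 681 lower, with the fewest without control replicate 4 (1181) and control replicate 6 (479 lower). Among genes not called, the sign of some differences turned. On the 8 arrays it was 0.0756 in nssp-48 and 0.31 in nssp-60. On leaving out 1 array the range was -0.22 to 0.0104 in nssp-11, -0.39 to 0.20 in nssp-25, -0.64 to 0.0172 in nssp-48, -0.0166 to 0.12 in nssp-53 and -0.36 to 0.18 in nssp-60. The cause of these shifts beyond fewer arrays or probes was not tested. With values on all 12 arrays required, nssp-1 and nssp-54 were left out. No nssp gene had a second probe, so setting a gene's other probe against the first gave no value, and averaging the probes of each gene left the median nssp difference at 0.16 and the number of called nssp genes at 4. Log base, scale, spot intensities and background were not known, which limits what a difference in these units means.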
